A study of Rattus norvegicus with 9 samples.

Results

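Oxidative phosphorylation in the rat spinal cord was described here by the genes of the protein subunits of its 5 complexes. Members were the protein-coding rows of the count table whose symbol begins with the names of complex I (Nduf followed by a, b, c, s or v and a digit), complex II (Sdha to Sdhd), complex III (Uqcr and Cyc1), complex IV (Cox4 to Cox8) or complex V (Atp5), or carries the Mt- prefix of a mitochondrially encoded subunit. In all, 128 rows matched by symbol, 122 of them were listed as protein coding, and 115 members remained after 1 row was kept for each repeated symbol. Of the 30507 rows of the table, 105 were thus nuclear members and 10 were Mt- members. No measured value entered this rule. Where members are grouped by complex below, Ndufa4 and Ndufa4l2 are counted with complex IV and not with complex I.

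The libraries were made from the T9 to T11 segments of the spinal cord of female wild-type Sprague-Dawley rats, obtained at 8 weeks of age, with 3 rats in each group, all taken at 35 days post-injury (dpi). Sham rats had a laminectomy alone (the labels list them as untreated). SCI rats had a contusion of 150 kdyn at T10. SCI + SCS rats had the same contusion and an epidural electrode, through which the cord was stimulated at 10 kHz for 2 h per day from 1 dpi. Rats with an electrode and no current were not analysed here, so that the electrode and the current cannot be told apart. The sources used here do not speak of pooled rats, and the tissue was the whole segment. Fewer cells of a type and less RNA per cell cannot be told apart in it.

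Complexes I, III and IV of the inner mitochondrial membrane pass electrons from NADH, and complex II those from succinate, to oxygen while protons are pumped out of the matrix, and complex V, the ATP synthase, lets them return to make ATP. Most subunits are encoded in the nucleus and imported, whereas a few that form the membrane cores of complexes I, III, IV and V are encoded by mitochondrial DNA, so that both genomes have to supply each of these complexes. Neurons depend heavily on this pathway for ion pumping and synaptic transmission. Promoters of nuclear subunit genes are known for sites of NRF1, of the ETS factor GABP, of YY1 and of the estrogen-related receptors (ERR).

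Letters of these 4 kinds of site were searched in the RefSeq promoters of the members (build GRCr8, 250 bases before to 50 bases after each gene start), on both strands. The letters were CGCATGCG for NRF1, CCGGAAG for the ETS family, AAGATGGCG for YY1 and AAGGTCA for the ERR family. The 150 bases before the start are printed 5′ to 3′ for 6 members described below, each of which held a match there (in capitals). Not every member that moved held one. The promoters of Ndufs1, Cox5a and Sdha, which also fell after injury, held no match in these 150 bases. Of the 6 printed, the first 3 are genes with lower levels after injury and the last 3 are genes with higher levels.
Uqcrc2, chr1:184599090-184599239, plus strand: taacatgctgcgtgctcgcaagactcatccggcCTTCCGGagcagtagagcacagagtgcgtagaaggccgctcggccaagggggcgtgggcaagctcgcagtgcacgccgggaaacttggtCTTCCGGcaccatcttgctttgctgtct
Uqcrc1, chr8:118468073-118468222, plus strand: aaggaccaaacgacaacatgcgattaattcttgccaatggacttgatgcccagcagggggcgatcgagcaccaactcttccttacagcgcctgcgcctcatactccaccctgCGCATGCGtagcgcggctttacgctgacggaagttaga
Atp5mc3, chr3:79220665-79220814, minus strand: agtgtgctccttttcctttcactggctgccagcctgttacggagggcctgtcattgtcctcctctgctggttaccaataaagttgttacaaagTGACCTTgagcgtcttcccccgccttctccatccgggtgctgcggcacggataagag
Atp5mc2, chr7:135678219-135678368, minus strand: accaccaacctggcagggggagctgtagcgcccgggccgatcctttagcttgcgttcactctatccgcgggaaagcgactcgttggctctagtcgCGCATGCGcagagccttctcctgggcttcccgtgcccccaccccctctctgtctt
Uqcrq, chr10:38089979-38090128, minus strand: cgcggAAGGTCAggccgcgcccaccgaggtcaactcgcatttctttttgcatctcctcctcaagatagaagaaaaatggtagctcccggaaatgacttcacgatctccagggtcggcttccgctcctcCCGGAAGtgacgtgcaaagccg
Ndufa11, chr9:1637464-1637613, plus strand: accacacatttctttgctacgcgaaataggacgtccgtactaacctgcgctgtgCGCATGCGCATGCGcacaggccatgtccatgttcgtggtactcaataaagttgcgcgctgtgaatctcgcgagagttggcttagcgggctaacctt

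Uqcrc2 held the ETS letters on the minus strand at 2 places, Uqcrc1 the NRF1 letters at 1 place and Atp5mc3 the ERR letters on the minus strand at 1 place. Atp5mc2 held the NRF1 letters at 1 place, Uqcrq the ERR and ETS letters at 1 place each, and Ndufa11 2 copies of the NRF1 letters that overlap each other. The NRF1 letters read the same on both strands. A promoter was matched for 79 of the 105 nuclear members, and at least 1 of the 4 strings was present in 34 of them (43.0%), against 16.1% of all 27457 promoters. The ETS letters were in 25.3% of the members' promoters and in 9.22% of all promoters, the ERR letters in 11.4% and 4.37%, the YY1 letters in 12.7% and 1.93%, and the NRF1 letters in 8.86% and 1.81%. A string was present in 4 of the 8 matched promoters of members called lower after SCI and in 7 of the 8 of those called higher. These matches are letters in a window and were not tested.

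Library totals lay between 62844376 and 88358570 counts, and levels are given below as counts scaled to library size (CPM) after TMM normalisation over the 9 libraries, or as FPKM where genes are compared per length. Cell type markers differed with injury. All 14 neuron markers were lower in SCI than in Sham, 8 of 9 oligodendrocyte markers were lower and all 10 microglia and macrophage markers tested were higher. Summed neuron markers were 5673 to 12407 CPM in Sham, 1059 to 3018 CPM in SCI and 2832 to 4561 CPM in SCI + SCS libraries. Of the 23 skeletal muscle markers tested, 18 were higher in SCI than in Sham, and 2 libraries stood apart. Summed skeletal muscle markers were 5033 CPM in SCI rat 1 and 1622 CPM in SCI rat 3, against 105 to 187 CPM in the other 7 libraries. The part of these cell types in the results below was not tested.

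Together the nuclear members took about 1% of each library. It was 1.25, 1.07 and 1.04% of counts in Sham, 1.21, 0.981 and 1.16% in SCI and 1.08, 1.03 and 1.12% in SCI + SCS, and the groups overlapped. The Mt- members took about 10 times as much, with 13.8, 11.3 and 10.7% in Sham, 14.0, 10.2 and 7.89% in SCI and 10.9, 11.7 and 11.5% in SCI + SCS. The SCI libraries held both the highest and the lowest share. Counts on Mt- members per count on nuclear members were 11.03, 10.6 and 10.3 in Sham and 10.1, 11.4 and 10.3 in SCI + SCS. In SCI they were 11.6, 10.4 and 6.83, so that rat 3 lay below the other 8 libraries. In an exact two-sided permutation test of log2 values, which cannot go below 0.1 with 3 rats against 3, the comparison of SCI with Sham gave P=1 for the nuclear share, P=0.5 for the Mt- share and P=0.8 for their ratio. The mRNA was selected by its poly(A) tail, so the Mt- share is that of the tailed transcripts.

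**Figure D1:**
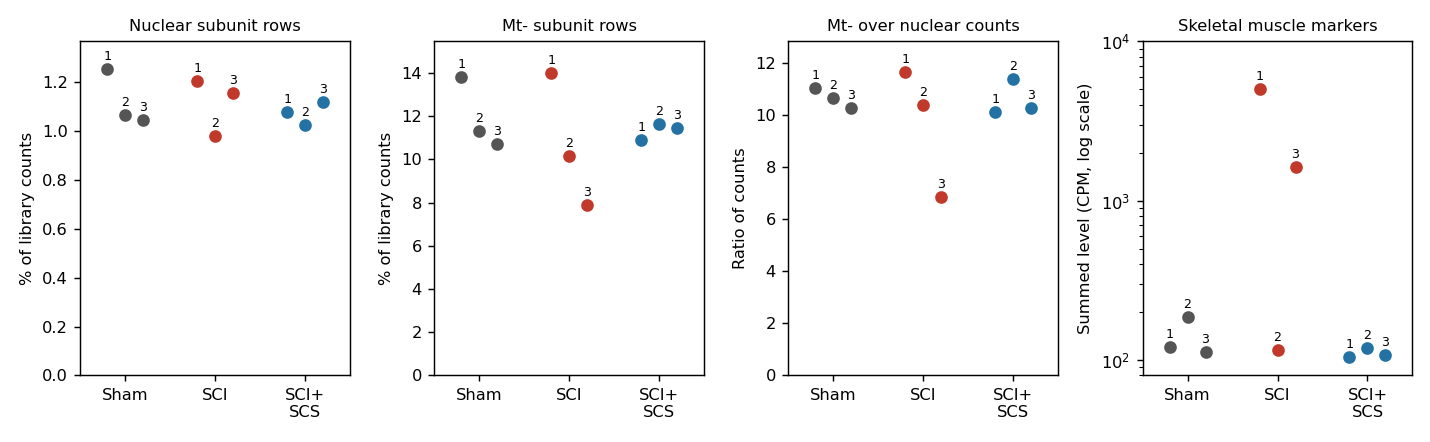
Share of counts on nuclear and on Mt- members (% of library counts), counts on Mt- members per count on nuclear members, and summed level of skeletal muscle markers (CPM, log scale) in each library; the number at each point is the rat. The Mt- over nuclear ratio of SCI rat 3 (6.83) lies below the other 8 libraries, and muscle markers are high in SCI rats 1 and 3.

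Per length, Mt- transcripts stood far above the nuclear ones. In Sham the median of the 10 Mt- members was 6587 FPKM, with Mt-co1 at 24858 FPKM and Mt-nd6, the one member on the other strand, at 0.277 FPKM. Among nuclear members that are spliced and passed the filter on low counts, the Sham median was 70.6 FPKM for the 32 of complex I, 71.9 for the 4 of complex II, 91.6 for the 8 of complex III, 149.9 for the 16 of complex V and 169.9 for the 15 of complex IV. Their highest Sham levels were those of Atp5f1b, the catalytic beta subunit of ATP synthase (476 FPKM), and Cox6a1, the usual form of a complex IV subunit (452 FPKM). The lowest was Ndufa4l2, a relative of Ndufa4 (3.26 FPKM). Complexes I and II lay close together at the bottom of this order, and the medians of complexes IV and V changed places after SCI, when complex IV stood at 113 FPKM and complex V at 165 FPKM. The middle gene of complex IV was Cox5a in Sham and another gene, Cox7a2l, in SCI. Over the 16 complex IV members tested, the median log2FC in SCI against Sham was 0.11, with 9 positive and 7 negative.

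Of the 105 nuclear members, 88 passed the filter on low counts in every comparison. The other 17 were mostly rows named as pseudogenes or as copies of a subunit, besides a row named Ndufb2 and the testis-type forms Cox7b2 and Cox8c. They held 0 to 23 counts over all 9 libraries, and 9 of them held none. Of the 88, 13 were rows with a single exon, as judged from the gene span and the transcript length that counts and FPKM imply, and 75 were spliced genes. All 10 Mt- members passed in the comparisons with Sham and 9 in SCI + SCS against SCI, where Mt-nd6 failed.

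SCI against Sham asked what the contusion left at 35 dpi. Of the 88 nuclear members, 9 were lower and 10 were higher (quasi-likelihood test of edgeR, Benjamini-Hochberg adjustment over 17822 rows, adjusted P under 0.05). These are 10.2 and 11.4% of the members, where 25.0% of all rows were lower and 24.3% were higher. The median log2FC of the nuclear members was 0.11, beside 0.02 for all rows tested, and 67 of 88 lay within 0.5 of 0. With an absolute log2FC over 1 as a further condition, 1 member was lower (Uqcrc2) and 1 was higher (Cox6a2), whereas 13.6% of all rows were lower and 13.4% were higher by that rule. DESeq2 called 13 members lower and 10 higher, among them all 19 of edgeR. Over all rows DESeq2 called 4931 lower and 4939 higher of 19694. All SCI libraries lay below all Sham libraries in 13 of the 88 members and above them in 15. Over all 17822 rows this was so for 5516 and 5811, so a lack of overlap was common in this comparison. Some genes below were named because their libraries did not overlap, and for them it is no further support. The counts of members depended on single rats, as given below for each direction.

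**Figure D2:**
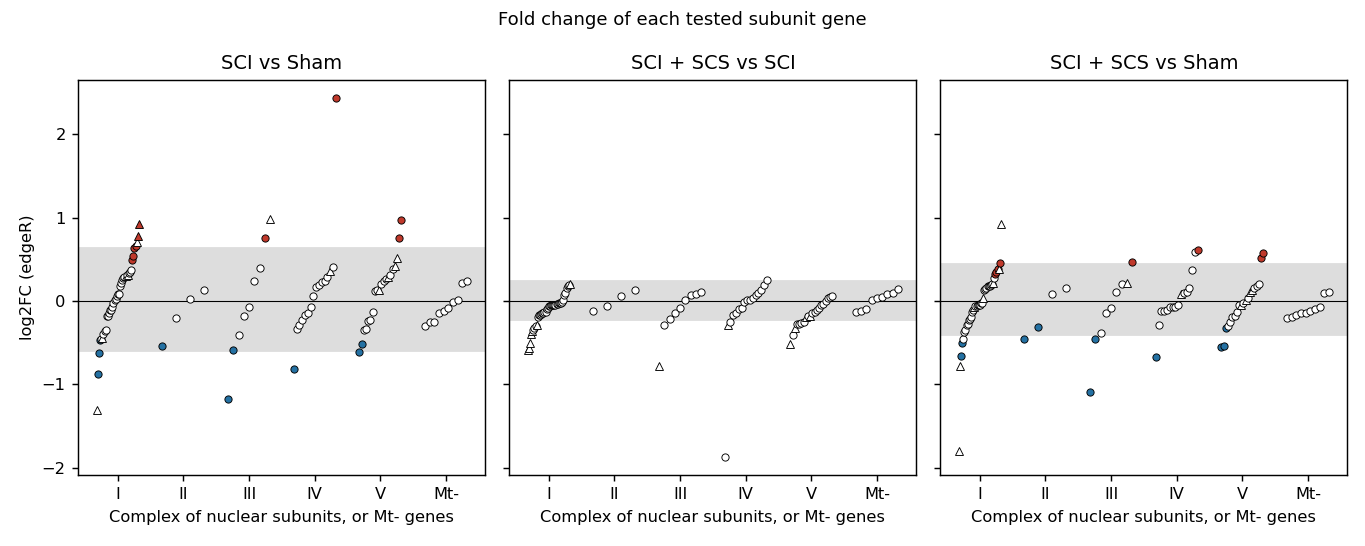
log2FC of every member tested, in 3 comparisons (panels), by complex for nuclear members and apart for Mt- members; filled symbols were called higher (red) or lower (blue) at adjusted P under 0.05, triangles are single-exon rows, and the grey band spans the quartiles of all rows tested. In SCI vs Sham 9 nuclear members are blue and 10 are red, no Mt- member is filled, and in SCI + SCS vs SCI none is filled.

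The members that fell were led by Uqcrc2, a core protein of complex III (chr1:175167894-175199453 of mRatBN7.2, plus strand). Its level was 203, 184 and 182 CPM in the Sham libraries, 91.5, 80.2 and 84.5 CPM in the SCI libraries and 81.2, 93.5 and 93.1 CPM in the SCI + SCS libraries. The group means were 189.7 ± 11.4, 85.4 ± 5.69 and 89.3 ± 7.02 CPM (SD, n = 3 each), and the Sham libraries did not overlap with those of either injured group. Its log2FC in SCI against Sham was -1.17 ± 0.10 (adjusted P=0.00114) by edgeR, a level 0.444 times that of Sham. Its partner Uqcrc1 (chr8:109589706-109601480) was at 307, 234 and 216 CPM in the Sham libraries, 179, 156 and 178 CPM in the SCI libraries and 174, 186 and 191 CPM in the SCI + SCS libraries. All SCI libraries lay below all Sham libraries, with a log2FC of -0.58 ± 0.16 (adjusted P=0.0215) by edgeR. The Rieske iron-sulfur protein Uqcrfs1 and cytochrome c1 (Cyc1), which carry electrons in the same complex, had log2FCs of -0.41 ± 0.14 (adjusted P=0.0509) and -0.18 ± 0.15 (adjusted P=0.336) by edgeR and did not pass.

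Ndufs1, the largest iron-sulfur subunit of complex I (chr9:64546225-64579893), had levels of 156, 137 and 120.3 CPM in the Sham libraries, 86.2, 67.6 and 75.2 CPM in the SCI libraries and 81.3, 87.5 and 92.0 CPM in the SCI + SCS libraries. Every SCI library was below every Sham library, and the log2FC was -0.87 ± 0.14 (adjusted P=0.00403) by edgeR. Cox5a, a nuclear subunit of complex IV next to its catalytic core (chr8:57922290-57932078), was at 245, 189 and 189 CPM in the Sham libraries, 139.6, 109 and 109.8 CPM in the SCI libraries and 117, 132 and 141 CPM in the SCI + SCS libraries. The SCI and Sham libraries did not overlap, and its log2FC was -0.82 ± 0.16 (adjusted P=0.00718) by edgeR. Sdha, the flavoprotein of complex II that oxidises succinate (chr1:28940164-28961535), was at 287, 254 and 224 CPM in the Sham libraries, 180.4, 169 and 185 CPM in the SCI libraries and 183, 184 and 189 CPM in the SCI + SCS libraries. It fell with a log2FC of -0.54 ± 0.12 (adjusted P=0.0118) by edgeR, while the iron-sulfur subunit Sdhb had a log2FC of 0.13 ± 0.13 (adjusted P=0.43).

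Ndufa8, an accessory subunit of complex I (chr3:19386065-19402071), was at 215, 162 and 156 CPM in the Sham libraries, 144, 95.7 and 113 CPM in the SCI libraries and 128, 121 and 141 CPM in the SCI + SCS libraries. Its log2FC was -0.62 ± 0.20 (adjusted P=0.0383) by edgeR. Atp5if1, the peptide that inhibits ATP synthase when it runs backwards (chr5:144738950-144742668), was at 139, 104 and 105 CPM in the Sham libraries, 86.8, 78.6 and 81.0 CPM in the SCI libraries and 83.3, 73.8 and 80.5 CPM in the SCI + SCS libraries. Its libraries did not overlap between SCI and Sham, and the log2FC was -0.52 ± 0.14 (adjusted P=0.0211) by edgeR. The row listed as Ndufa10l1, whose gene identifier RefSeq gives to Ndufa10, fell with a log2FC of -0.47 ± 0.13 (adjusted P=0.0247) by edgeR, and the ninth member that fell, Atp5mc3, is described with the c subunit genes. Of these 9, Uqcrc2, Ndufs1, Cox5a and Sdha stayed called when any 1 of the 6 rats was left out. Without SCI rat 2 or without SCI rat 3, 4 members were called lower, and without any other rat 7 to 11. Over all rows, leaving out 1 rat gave 3238 to 4243 lower, beside 4462 with all 6 rats.

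A list of 14 subunits, most of them catalytic or electron-carrying, was followed (Ndufs1, Ndufs7, Ndufv1, Sdha, Sdhb, Uqcrfs1, Uqcrc1, Uqcrc2, Cyc1, Cox5a, Cox5b, Atp5f1a, Atp5f1b and Atp5f1c). Uqcrc1, Uqcrc2, Cox5a and Cox5b on it carry no electrons, and 3 of them are among its members called lower. In SCI 5 of the 14 were lower and 0 higher, where 25.0% of all rows were lower and 24.3% higher. The median log2FC of the 14 was -0.35, beside 0.02 for all rows. The other 61 spliced members had 4 lower, 8 higher and a median of 0.13. Ndufv1, which takes the electrons from NADH, had a log2FC of -0.36 ± 0.15 (adjusted P=0.0928) and Ndufs7, near the quinone site, 0.06 ± 0.14 (adjusted P=0.758) by edgeR. The ATP synthase subunits Atp5f1a, Atp5f1b and Atp5f1c had log2FCs of -0.35 ± 0.12 (adjusted P=0.0544), -0.13 ± 0.17 (adjusted P=0.561) and -0.24 ± 0.13 (adjusted P=0.18), and Cox5b one of 0.23 ± 0.23 (adjusted P=0.443). The iron-sulfur subunits Ndufs8 and Ndufv2, which are not on the list, had log2FCs of 0.31 ± 0.14 (adjusted P=0.11) and -0.03 ± 0.17 (adjusted P=0.907) by edgeR. The transcripts of the 14 were longer, with a median of 1857 bases against 804 bases for the other spliced members, and length moved with log2FC in these libraries (below).

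Of the members that rose, Atp5mc2, a gene of the proton-carrying c subunit of ATP synthase (chr7:133791342-133794843, minus strand), was at 142, 129.5 and 139 CPM in the Sham libraries, 265, 209 and 232 CPM in the SCI libraries and 204, 199 and 184 CPM in the SCI + SCS libraries. SCI and Sham did not overlap, and the log2FC was 0.76 ± 0.12 (adjusted P=0.00323) by edgeR, a level 1.69 times that of Sham. Uqcrq, a small subunit of complex III (chr10:37586888-37589169), was at 99.7, 82.7 and 88.3 CPM in the Sham libraries, 194, 116 and 152 CPM in the SCI libraries and 132, 115 and 128 CPM in the SCI + SCS libraries. Its log2FC was 0.75 ± 0.19 (adjusted P=0.0187) by edgeR. Atp5f1e, the epsilon subunit of the ATP synthase stalk (chr3:163260476-163261450), was at 53.7, 51.8 and 54.2 CPM in the Sham libraries, 145, 72.7 and 99.7 CPM in the SCI libraries and 84.9, 73.6 and 80.02 CPM in the SCI + SCS libraries, with a log2FC of 0.97 ± 0.24 (adjusted P=0.0157) by edgeR. In each of these genes the highest library was SCI rat 1.

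Among accessory subunits of complex I, Ndufa11 (chr9:1550468-1555601) was at 120.2, 105 and 112 CPM in the Sham libraries, 213, 141 and 174 CPM in the SCI libraries and 167, 134 and 159 CPM in the SCI + SCS libraries, with a log2FC of 0.63 ± 0.16 (adjusted P=0.0182) by edgeR. Ndufa1, Ndufa2 and Ndufa13 rose too, with log2FCs of 0.49, 0.66 and 0.54. Besides Cox6a2, described with the tissue forms, the remaining rises were those of 2 single-exon rows of complex I. Ndufb4l4 (chrX:39446524-39446913) was at 4.13 to 4.999 CPM in Sham and 6.14 to 12.6 CPM in SCI, and Ndufa13-ps1 (chr7:30370154-30370588) at 3.52 to 3.60 and 4.29 to 8.54 CPM. Their log2FCs were 0.93 ± 0.28 (adjusted P=0.0306) and 0.78 ± 0.27 (adjusted P=0.0489) by edgeR, and such copies can take reads from the gene they resemble. Of the 10 that rose, only Atp5mc2 stayed called when any 1 of the 6 rats was left out. The number called higher was 6, 1 and 4 without Sham rats 1, 2 and 3, and 4, 12 and 2 without SCI rats 1, 2 and 3. Over all rows it ran from 2853 without Sham rat 2 to 4120 without Sham rat 3, beside 4334 with all 6 rats.

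**Figure D3:**
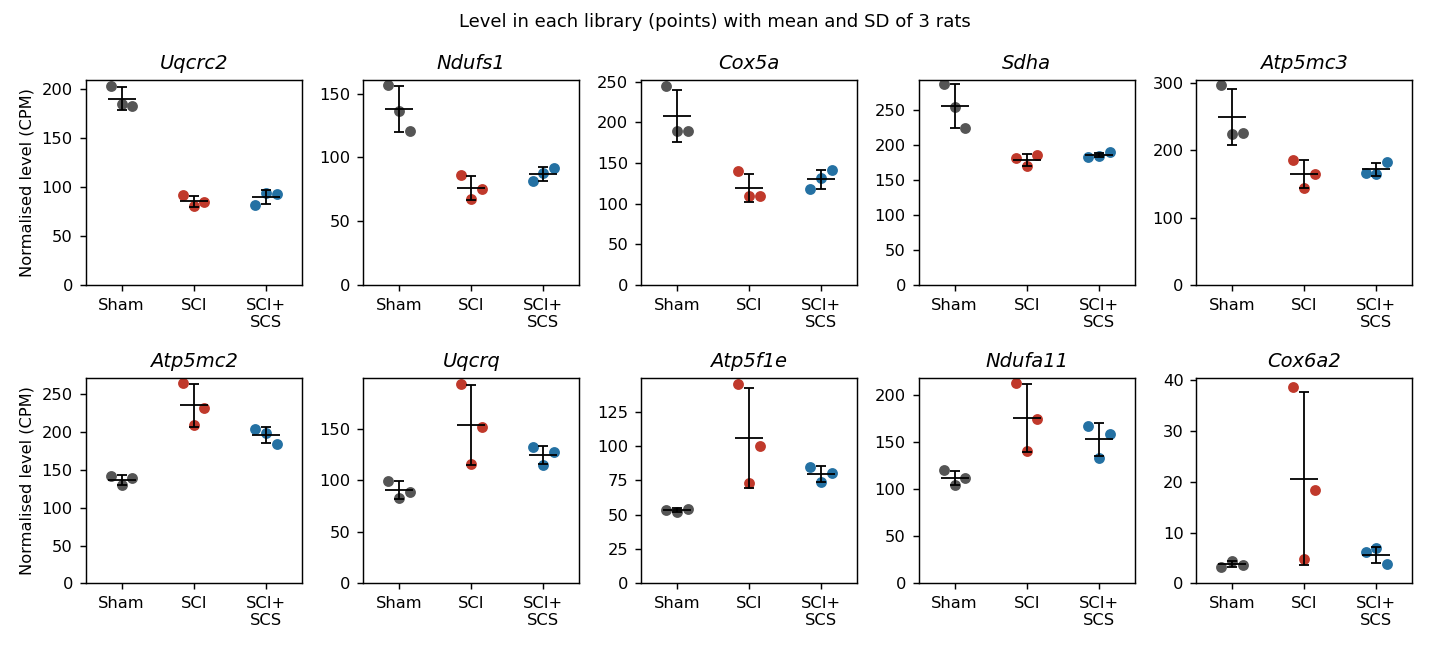
Level (CPM) of 10 named members in each library (points, rats 1 to 3 from left to right in a group), with the mean and SD of 3 rats. In Uqcrc2, Ndufs1, Cox5a, Sdha and Atp5mc3 all SCI and SCI + SCS points lie below all Sham points, and in Atp5mc2, Uqcrq, Atp5f1e and Ndufa11 all lie above them, with SCI rat 1 highest. Cox6a2 is high in SCI rats 1 and 3.

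By complex, complex I had 3 members lower and 6 higher of 39 tested, complex II 1 and 0 of 4, complex III 2 and 1 of 9, complex IV 1 and 1 of 16 and complex V 2 and 2 of 20. Median log2FCs were 0.08, -0.09, -0.07, 0.11 and 0.17 in that order. These counts stand beside 25.0% of all rows lower and 24.3% higher. Members that fell and members that rose were found in each complex except complex II. With only 4 members tested, the lack of a rise there does not set complex II apart.

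Transcript length went with the fold change over all rows, subunits or not. Median log2FC in SCI against Sham was 0.53 for the 541 rows under 500 bases, 0.41 at 500 to 800, 0.35 at 800 to 1200, 0.13 at 1200 to 2000, 0.01 at 2000 to 3000, -0.14 at 3000 to 5000 and -0.16 above. Nuclear members in the first 5 of these classes had medians of 0.27 (24 rows), 0.10 (18), 0.19 (17), -0.15 (22) and -0.35 (5), so that they stood below all rows of their own length in each. Spearman's correlation of length with log2FC was -0.39 over the 88 members and -0.19 over 17648 rows, as a description across genes of the same libraries. The 9 members that fell had a median length of 1595 bases and the 10 that rose one of 518 bases. Without SCI rat 1 the median log2FC of the nuclear members went from 0.11 to -0.09. How far length enters the single calls was not tested.

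**Figure D4:**
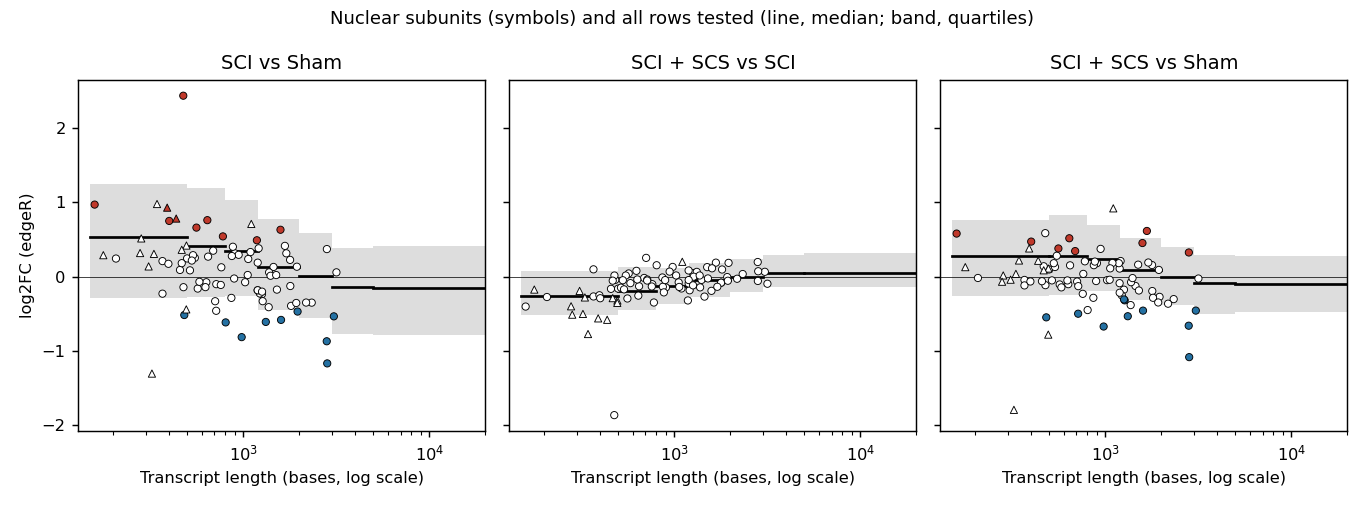
log2FC of the nuclear members (symbols as for the plot by complex) against transcript length (bases, log scale) in 3 comparisons, over the median (line) and quartiles (band) of all rows of the same length class. In SCI vs Sham the line falls from 0.53 under 500 bases to -0.16 above 5000 bases and in SCI + SCS vs SCI it rises from -0.26 to 0.05, and the members follow the slope.

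The c subunit of ATP synthase, which forms the rotating ring, is encoded by 3 genes whose mature proteins are alike. Atp5mc3 (chr3:58810535-58812529) was at 297, 224 and 226 CPM in the Sham libraries, 186, 144 and 166 CPM in the SCI libraries and 167, 165 and 183 CPM in the SCI + SCS libraries. It fell in SCI with a log2FC of -0.61 ± 0.16 (adjusted P=0.0192) by edgeR, while Atp5mc2 rose. The ratio of Atp5mc3 to Atp5mc2 per length (FPKM) was 1.01, 0.843 and 0.787 in Sham, 0.341, 0.334 and 0.348 in SCI and 0.398, 0.403 and 0.484 in SCI + SCS. The groups did not overlap, and SCI + SCS lay between the other 2. The log2 ratio changed by -1.36 from Sham to SCI and was 0.32 higher in SCI + SCS than in SCI, each with P=0.1 in an exact two-sided permutation test, the smallest that 3 rats against 3 allow (0.162 when adjusted over 21 ratio tests). The third gene, Atp5mc1, is listed as lncRNA and is no member. Its row was at 118, 83.1 and 85.0 CPM in Sham, 103, 77.8 and 85.2 CPM in SCI and 81.5, 79.1 and 84.4 CPM in SCI + SCS, and the groups overlapped.

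Tissue forms of complex IV were low. Cox6a2, the form of heart and skeletal muscle (chr1:182788528-182789274), was at 3.27, 4.40 and 3.59 CPM in the Sham libraries, 38.7, 4.85 and 18.4 CPM in the SCI libraries and 6.13, 6.93 and 3.81 CPM in the SCI + SCS libraries. Its log2FC in SCI was 2.44 ± 0.68 (adjusted P=0.0243) by edgeR, with SCI rats 1 and 3 high and SCI rat 2 close to Sham. These are the 2 libraries in which the skeletal muscle markers were high. Its call was lost when any rat other than SCI rat 2 was left out. The usual form Cox6a1 was at 364, 302 and 297 CPM in the Sham libraries, 331, 256 and 286 CPM in the SCI libraries and 299, 286 and 309 CPM in the SCI + SCS libraries, and per length Cox6a2 was 0.0107 to 0.0174 of it in Sham. Cox7a1, also of muscle, was at 9.53, 6.51 and 8.97 CPM in the Sham libraries, 20.1, 7.28 and 6.31 CPM in the SCI libraries and 13.4, 13.8 and 11.05 CPM in the SCI + SCS libraries, and its highest library was SCI rat 1. Of its partners, the row listed as Cox7a2 is a single-exon row at 6.02 to 12.2 CPM, and the row listed as Cox7a2l2 carries the RefSeq identifier of Cox7a2 and was at 99.97 to 151 CPM.

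Cox4i2, the form of subunit 4 known from lung and hypoxia, was at 3.68, 3.86 and 4.16 CPM in the Sham libraries, 4.34, 2.1996 and 2.88 CPM in the SCI libraries and 3.31, 3.89 and 3.96 CPM in the SCI + SCS libraries. Against Cox4i1, at 440.2 to 646 CPM, its log2 ratio per length changed by -0.56 in SCI. Ndufa4l2, known as a hypoxia-induced relative of Ndufa4, was at 4.68, 3.01 and 3.87 CPM in the Sham libraries, 6.01, 4.37 and 3.96 CPM in the SCI libraries and 4.87, 5.49 and 4.59 CPM in the SCI + SCS libraries. Its log2 ratio to Ndufa4 (141 to 234 CPM) was 0.59 higher in SCI and 0.67 higher in SCI + SCS than in Sham. Each of these 3 differences had P=0.1 in the exact two-sided permutation test, the smallest it can give. Neither Cox4i2 nor Ndufa4l2 passed the edgeR test on its own (adjusted P=0.352 and 0.367 in SCI against Sham). Cox6b1 was at 157 to 256 CPM with a log2FC of 0.25 ± 0.18 (adjusted P=0.285) by edgeR. Cox8a, Cox8b and Cox6b2 were not analysed here.

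Of the 10 Mt- members, 0 were called in any comparison (edgeR, Benjamini-Hochberg adjustment), and 0 passed an unadjusted P under 0.05 or DESeq2. Of all rows, edgeR called 25.0% lower and 24.3% higher in SCI against Sham, and 16.2% each way in SCI + SCS against Sham. In SCI + SCS against SCI, with 9 Mt- members tested, it called 1 row in all, so 0 there does not set Mt- members apart. In SCI against Sham 7 of 10 had a negative log2FC, with a median of -0.10. Mt-co1, the catalytic subunit of complex IV (chrMT:5323-6933), was at 58798, 48247 and 42992 CPM in the Sham libraries, 58470, 37266 and 27768 CPM in the SCI libraries and 43088, 46011 and 46549 CPM in the SCI + SCS libraries. Its log2FC was -0.30 ± 0.37 (adjusted P=0.521) by edgeR, and the SCI libraries overlapped with both other groups. Mt-co2, which takes electrons from cytochrome c, had a log2FC of -0.01 ± 0.27 (adjusted P=0.972) and Mt-cyb, cytochrome b of complex III, -0.12 ± 0.28 (adjusted P=0.743). The complex I genes Mt-nd1, Mt-nd2, Mt-nd3 and Mt-nd5, of its proton-pumping arm, had log2FCs of 0.01, -0.25, 0.24 and -0.25, with standard errors of 0.35, 0.36, 0.22 and 0.20.

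The rows listed as Mt-nd4l and Mt-atp8 span more than the gene they are named for, with log2FCs of -0.15 ± 0.31 (adjusted P=0.717) and -0.08 ± 0.32 (adjusted P=0.841) by edgeR. Mt-nd4l covers 1668 bases and Mt-atp8 is listed on 3 rows of the same span, so which transcript their counts come from is uncertain. Mt-nd6 lay at 0.0568 to 0.533 CPM and its span lies within the listed span of Mt-nd5 on the opposite strand. The standard error of a log2FC had a median of 0.32 over Mt- members and of 0.17 over nuclear members in SCI against Sham. Mt-atp6, Mt-co3 and Mt-nd4 were not analysed here.

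SCI + SCS against SCI asked what stimulation with its electrode changed after the contusion. No nuclear member was called in either direction (0 of 88, edgeR), where 0% of 17663 rows were lower and 0.00566% (1 row) were higher. DESeq2, which called 1463 rows higher and 1140 lower over the table, called 0 members. At an unadjusted P under 0.05, 2 members were lower and 0 higher, and 10.9% of all rows were lower and 13.3% higher by that rule. The 2 were Ndufa1 (-0.32 ± 0.12, adjusted P=0.17) and Cox6a2 (-1.87 ± 0.67, adjusted P=0.155, edgeR), and the second was high in the SCI libraries with high muscle markers. Of the 88 log2FCs, 82 lay within 0.5 of 0 and 64 were negative, with a median of -0.08 and a median standard error of 0.15.

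Of the members lower in SCI than in Sham, Uqcrc2 had a log2FC of 0.07 ± 0.10 (adjusted P=0.685), Ndufs1 one of 0.20 ± 0.11 (adjusted P=0.324), Cox5a one of 0.13 ± 0.13 (adjusted P=0.574), Sdha one of 0.06 ± 0.08 (adjusted P=0.656) and Uqcrc1 one of 0.11 ± 0.09 (adjusted P=0.497) by edgeR. Among those higher in SCI, Atp5mc2 had a log2FC of -0.26 ± 0.11 (adjusted P=0.211), Uqcrq -0.29 ± 0.18 (adjusted P=0.369), Atp5f1e -0.40 ± 0.23 (adjusted P=0.333) and Ndufa11 -0.19 ± 0.17 (adjusted P=0.516) by edgeR. The single-exon rows Ndufb4l4 and Ndufa13-ps1 had -0.56 ± 0.27 (adjusted P=0.247) and -0.58 ± 0.27 (adjusted P=0.244). All SCI + SCS libraries of Atp5mc2 lay below all SCI libraries, and in the other 5 the groups overlapped. Such a lack of overlap was found in 2 of the 88 members downward and 0 upward, beside 2448 and 2768 of 17663 rows. A P value that misses the threshold does not show that the groups were alike. Here, too, short rows moved most, with a median log2FC of -0.26 for all rows under 500 bases and of -0.29 for the 24 members among them. Of the 9 Mt- members tested, log2FCs ran from -0.14 to 0.14, and without SCI rat 3 their median went from 0.04 to -0.225.

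SCI + SCS against Sham compared the stimulated rats with uninjured cord. Of the 88 nuclear members, 10 were lower and 8 higher (quasi-likelihood test of edgeR, Benjamini-Hochberg adjustment), or 11.4 and 9.09%, where 16.2% of 17640 rows were lower and 16.2% higher. Median log2FC was -0.04 for the members and 0.01 for all rows. All SCI + SCS libraries lay below all Sham libraries in 20 members and above them in 14, beside 4586 and 4795 of all rows. Because SCI against Sham used the same Sham rats, values of both comparisons are given side by side. Of the members called lower, 7 were called in both, 2 in SCI alone and 3 in SCI + SCS alone. Of those called higher, the numbers were 5, 5 and 3. DESeq2 called 15 lower and 8 higher, with all 18 of edgeR among them. Over all rows DESeq2 called 3769 lower and 3574 higher of 18784.

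Among the members called, Uqcrc2 was again the lowest, with a log2FC of -1.09 ± 0.09 (adjusted P=0.00315) in SCI + SCS beside -1.17 in SCI. Cox5a had -0.67 ± 0.13 (adjusted P=0.014) beside -0.82, Ndufs1 -0.66 ± 0.11 (adjusted P=0.01) beside -0.87, Atp5if1 -0.55 ± 0.13 (adjusted P=0.0233) beside -0.52 and Atp5mc3 -0.53 ± 0.13 (adjusted P=0.0251) beside -0.61 (edgeR). The list of 14 subunits had 5 lower and 0 higher, where 16.2% of all rows were lower and 16.2% higher, and a median of -0.33. Ndufs6, Atp5pb and Sdhd, the membrane anchor of complex II, were lower in SCI + SCS with log2FCs of -0.50, -0.32 and -0.31, beside -0.46, -0.33 and -0.20 in SCI, where they did not pass.

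Of the members higher than in Sham, Atp5f1e had a log2FC of 0.58 ± 0.08 (adjusted P=0.00621) beside 0.97 in SCI, Atp5mc2 0.52 ± 0.08 (adjusted P=0.00784) beside 0.76, Uqcrq 0.47 ± 0.10 (adjusted P=0.0172) beside 0.75 and Ndufa11 0.45 ± 0.11 (adjusted P=0.0239) beside 0.63 (edgeR). Cox7a1 rose with 0.62 ± 0.18 (adjusted P=0.0423) beside 0.41 ± 0.46 in SCI, and SCI + SCS libraries had muscle markers at 105 to 119 CPM. Ndufb10 and Ndufv3 rose as well, with log2FCs of 0.34 and 0.33, and the remaining rise was that of Ndufa2 (0.38). Uqcrc2, Ndufs1, Atp5f1e and Atp5mc2 stayed called whichever of the 6 rats was left out. The number lower was 3 without Sham rat 2 and 2, 2 and 3 without SCI + SCS rats 1, 2 and 3. The number higher was 2 and 5 without Sham rats 2 and 3 and 2, 4 and 3 without SCI + SCS rats 1, 2 and 3. Over all rows, leaving out 1 rat gave 946 to 3335 lower and 1179 to 3302 higher, beside 2849 and 2861 with all 6 rats. With the third group in the fit, 11 members were lower and 1 was higher, beside 2812 lower and 3068 higher of all 18077 rows.

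**Figure D5:**
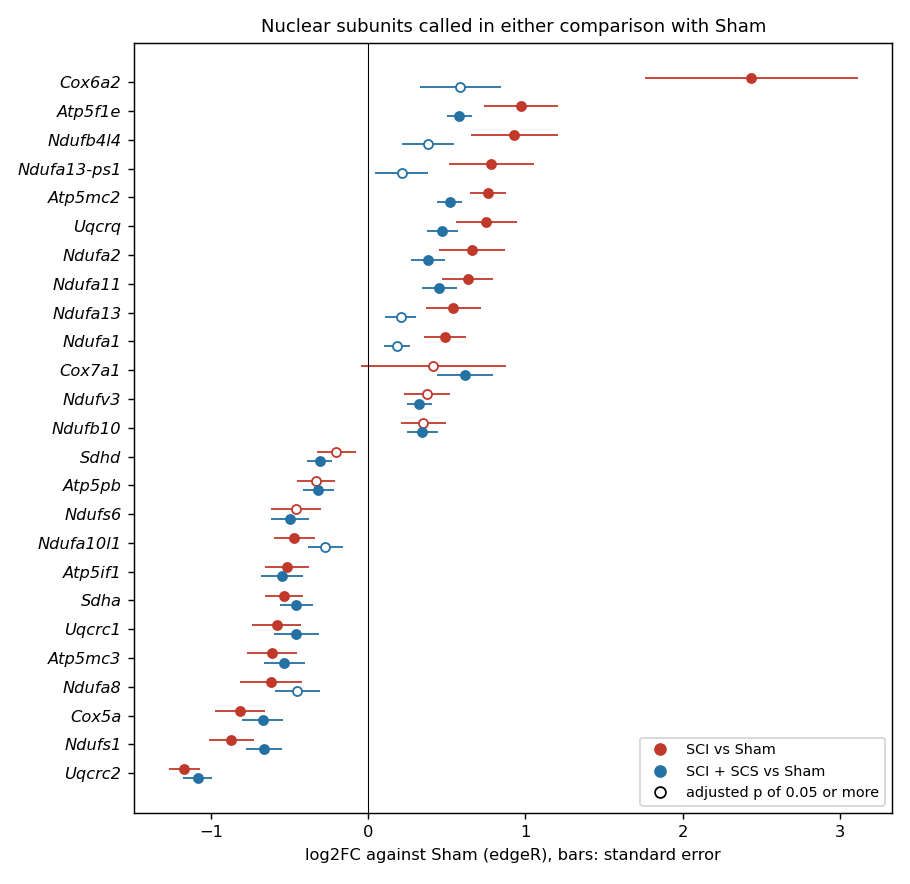
log2FC against Sham with its standard error for the 25 nuclear members called in SCI (red) or SCI + SCS (blue); open points had an adjusted P of 0.05 or more, and both comparisons share the 3 Sham rats. Uqcrc2 is lowest in both (-1.17 and -1.09), and Cox6a2 is highest in SCI (2.44) and open in SCI + SCS (0.59).

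Ndufs5, a subunit of the intermembrane side of complex I, has single-exon rows in the table that are named as its copies. Whether they share its reads was not tested. Ndufs5 was at 139, 71.8 and 112 CPM in Sham, while its single-exon copies Ndufs5-ps1 and Ndufs5-ps2 were at 1.43, 11.6 and 1.46 CPM and at 11.2, 35.2 and 9.31 CPM. Sham rat 2 was thus low in the gene and high in both copies. The 3 rows summed gave 152, 119 and 123 CPM in Sham, 177, 117 and 134 CPM in SCI and 141, 119 and 143 CPM in SCI + SCS. In this sum Sham rat 2 lay close to Sham rat 3, and SCI rat 1 was highest. The log2FC of Ndufs5-ps1, the lowest of all members in both comparisons with Sham (-1.31 and -1.80), was measured against a Sham group in which rat 2 stood at 11.6 CPM and the other 8 libraries at 1.06 to 3.50 CPM, and it did not pass the test.

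Other genes of the pathway were followed on lists that are no part of the rule, and their counts stand beside 25.0% of all rows lower and 24.3% higher. In SCI against Sham, 11 of 17 genes of the citric acid cycle and pyruvate dehydrogenase, which supply NADH and succinate, were lower and 0 higher (median log2FC -0.54, beside 0.02 for all rows). Sucla2, a subunit of succinyl-CoA synthetase, had a log2FC of -1.30 ± 0.12 (adjusted P=0.00129), Dlat of pyruvate dehydrogenase -0.95 ± 0.12 (adjusted P=0.00199) and Idh3a of isocitrate dehydrogenase -1.27 ± 0.16 (adjusted P=0.00202) by edgeR. Idh3a was at 239, 197 and 180.5 CPM in Sham, 98.8, 85.1 and 75.2 CPM in SCI and 108, 122 and 136 CPM in SCI + SCS. For glycolysis 9 of 17 were lower and 1 higher (median -0.52), with Pgam1 at -1.20 ± 0.16 (adjusted P=0.00227), Pfkp at -1.39 ± 0.23 (adjusted P=0.00404) and the lactate exporter Slc16a3 at 2.10 ± 0.34 (adjusted P=0.00409) by edgeR. Of mitochondrial carriers and fission or fusion genes 7 of 15 were lower and 0 higher, led by Opa1 and Mfn2, which fuse mitochondria, and the aspartate carrier Slc25a13, at -0.75, -0.70 and -0.92.

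Assembly factors are to be read against the same shares of all rows (25.0% lower, 24.3% higher). Those of complex I were lower in 5 and higher in 0 of 16, led by Ndufaf7 and Acad9, at -0.76 and -0.65. Those of complex IV were lower in 5 and higher in 2 of 16, and Cox11, which delivers copper to the catalytic core, was at 10.2, 11.1 and 8.60 CPM in Sham, 2.73, 3.31 and 2.15 CPM in SCI and 5.14, 4.16 and 4.31 CPM in SCI + SCS. Its log2FC was -1.89 ± 0.22 (adjusted P=0.0018) in SCI and -1.13 ± 0.16 (adjusted P=0.00629) in SCI + SCS against Sham by edgeR. For complex V 3 were lower and 2 higher of 6, with Tmem70 and Atpaf1, which help build the enzyme, at -0.79 and -0.82. For complexes II and III 4 were lower and 4 higher of 12, among them Lyrm7, which hands on the Rieske protein, at -0.95 ± 0.19 (adjusted P=0.00816), and Uqcc3, at 0.58 ± 0.11 (adjusted P=0.00741) by edgeR. Cytochrome c itself, Cycs, was at 169, 137 and 121 CPM in Sham and 95.1, 83.1 and 85.7 CPM in SCI, with a log2FC of -0.71 ± 0.15 (adjusted P=0.00861) by edgeR, and 4 of the 14 electron carrier genes were lower and 1 higher.

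Genes that copy and transcribe mitochondrial DNA had 2 lower and 4 higher of 20, where 25.0% of all rows were lower and 24.3% higher, with the single-strand binding protein Ssbp1 at 0.70 ± 0.13 (adjusted P=0.00583) and the RNA-binding protein Lrpprc at -0.60 ± 0.14 (adjusted P=0.0142) by edgeR. Of the 10 regulators of mitochondrial biogenesis tested, 4 were lower and 1 higher, beside the same shares. Ppargc1a (PGC-1 alpha), a coactivator of the pathway, held 136, 249 and 105 counts in Sham, 33, 34 and 43 counts in SCI and 42, 48 and 62 counts in SCI + SCS. Its log2FC was -2.04 ± 0.40 (adjusted P=0.00707) in SCI and -1.46 ± 0.38 (adjusted P=0.0314) in SCI + SCS against Sham by edgeR. Esrrg, a receptor of the ERR family, held 279, 413 and 146 counts in Sham, 37, 10 and 4 in SCI and 16, 28 and 55 in SCI + SCS. Esrrb held 33, 54 and 31 counts in Sham and 0 in all SCI libraries, and 0, 4 and 4 counts in SCI + SCS. All 14 neuron markers were lower in the same comparison, and their part in the values of these lists was not tested.

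In SCI + SCS against SCI 0 genes of any of these 10 lists were called by edgeR. At an unadjusted P under 0.05, 8 of 17 glycolysis genes and 3 of 17 citric acid cycle genes were higher and 0 lower, beside 13.3% of all rows. Median log2FCs were 0.35 and 0.14, and -0.08 for the nuclear subunits. By the same rule 7 of 14 neuron, 5 of 7 astrocyte and 5 of 9 oligodendrocyte markers were higher, and 1 astrocyte marker was lower. Microglia and macrophage markers were lower in 7 of 10, fibroblast markers in 5 of 6 and skeletal muscle markers in 21 of 22. T and NK lymphocyte markers were lower in 5 of 6 and adipocyte markers in 4 of 6, beside 10.9% of all rows lower. The part of these cell types in the values above was not tested. Against Sham, SCI + SCS had 9 of 17 citric acid cycle genes, 4 of 17 glycolysis genes and 8 of 15 carrier and fission or fusion genes lower. Of assembly factors, 2 of 16 (complex I), 2 of 16 (complex IV), 2 of 6 (complex V) and 3 of 12 (complexes II and III) were lower. On these lists 1 carrier and fission or fusion gene, 1 assembly factor of complex I (Ndufaf4, 0.52) and 2 of complexes II and III were higher. Of all rows, 16.2% were lower and 16.2% higher.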

How the data were processed

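RNA selected with oligo(dT) from 9 spinal cords, 3 per group, was sequenced in paired ends. Per the labels, the submitters' processing notes name fastp 0.23.2, HISAT2 2.2.1 and the build mRatBN7.2; whether the counting used strand is not given in the sources used here. The authors deposited raw counts per gene row and FPKM values, which scale the counts by row length and library total. Their methods name DESeq2, which served here as an alternative. Counts were tested with edgeR 4.0.16 (quasi-likelihood, TMM, filterByExpr) in R 4.3.3, each comparison on its 6 libraries, with Benjamini-Hochberg adjustment over all rows tested and a threshold of 0.05 at any fold. DESeq2 1.42.0 and limma 3.58.1 on log2(FPKM + 1) and log2(FPKM + 0.1) were alternatives. FPKM served to compare levels and isoforms per length. Library totals were 62844376 to 88358570 counts, and 3 counts correspond to 0.034 to 0.0477 CPM, which covers counting error only. Named genes were the called members with the largest log2FC in each direction whose libraries did not overlap between groups, and fixed lists of core subunits, isoforms and pathway genes; other members were named after their values were seen. The members and lists were chosen with earlier results of these data known. P values measure the spread between rats of a single experiment. No sample was left out. Row lengths were derived from counts and FPKM, and rows whose gene span was under 1.3 times that length were taken as single-exon rows. Rows with no symbol (4340) entered the fits.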

Additional observations from a re-analysis of the deposited data

How the results depend on the processing

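The absence of called Mt- members and of called members in SCI + SCS against SCI held under every alternative that used an adjusted P, and an unadjusted P under 0.05 gave 2 lower nuclear members there. In SCI against Sham, leaving out 1 rat gave 4 to 11 lower members (9 with all rats) and 1 to 12 higher members (10 with all rats). In SCI + SCS against Sham, it gave 2 to 13 lower (10 with all rats) and 2 to 10 higher (8 with all rats). Over all rows these fits gave 3238 to 4243 lower and 2853 to 4120 higher in SCI against Sham (4462 and 4334 with all rats). In SCI + SCS against Sham they gave 946 to 3335 lower and 1179 to 3302 higher (2849 and 2861 with all rats). With an absolute log2FC over 1, SCI against Sham kept 1 lower and 1 higher, and SCI + SCS against Sham 1 lower and 0 higher. Over all rows this rule kept 2415 lower and 2385 higher in the first and 960 and 1108 in the second. An unadjusted P under 0.05 gave 16 lower in SCI + SCS against Sham, beside 4080 of all 17640 rows. A fit of all 9 libraries gave 1 higher in SCI + SCS against Sham, beside 3068 of all 18077 rows. The replicate numbers were not treated as pairs of rats in the main fits. Deviations of rats with the same number correlated at 0.243, -0.0555 and 0.2 in SCI against Sham. They correlated at -0.165, 0.00198 and -0.205 in SCI + SCS against SCI and at -0.329, 0.0221 and -0.314 in SCI + SCS against Sham. These correlations come without a test and do not settle whether the numbers pair the rats. With the replicate number as a block, 14 were lower and 14 higher in SCI against Sham, 0 in SCI + SCS against SCI, and 1 lower and 1 higher in SCI + SCS against Sham. Over all rows the block gave 4411 lower and 4290 higher in SCI against Sham (4462 and 4334 without it). It gave 0 in SCI + SCS against SCI. In SCI + SCS against Sham it gave 546 lower and 713 higher of 17640 rows (2849 and 2861 without it). The cause of these shifts was not tested. No value that was called reversed its direction. The median log2FC of the nuclear members in SCI against Sham went to -0.09 without SCI rat 1, and that of the Mt- members in SCI + SCS against SCI to -0.225 without SCI rat 3. With 3 rats per group, exact permutation tests of single values cannot go below 0.1, and single-exon copies, Mt-nd4l and Mt-atp8 may share reads with other rows.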
